A study of Homo sapiens with 7 samples.

Results

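MSX1 and MSX2 are 2 homeobox genes of the muscle segment homeobox family. Both were taken by name as the family's members, with earlier results of these data known, and both were listed in all 3 single-cell count tables of the series, which share 21262 genes. Their levels are given here by library and by classes of cells set with marker genes. MSX1 lies on chromosome 4 at chr4:4859665-4863936 and MSX2 on chromosome 5 at chr5:174724582-174730896, both on the plus strand of GRCh38.p14, and RefSeq places 0 other genes over either.

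All libraries were made from cardiac differentiation cultures of 1 established line, the H1 human embryonic stem cells. One was sampled at day 11 and carries no treatment label. The others were sampled at day 15, one with the vehicle DMSO and one with CHIR, as CHIR99021 is usually shortened. CHIR99021 inhibits the kinase GSK3 and so switches on canonical Wnt signalling. The labels used here state neither its dose nor its time of addition, and the protocol text of the day 11 sample also names day 15. Each group was 1 library of sorted live cells, so no difference below has a replicate check, and every interval is a 95% interval that covers counting error only.

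MSX proteins bind DNA through a homeodomain and mostly repress transcription. Both genes are classic direct targets of BMP signalling, in which BMP ligands bind paired receptors and activate SMAD transducers. In the embryonic heart they are known from the atrioventricular canal, the ring of slowly conducting muscle between atria and ventricles, and from the cushions beside it, where endocardial cells turn into the mesenchyme of the valves. MSX2 is also a known marker of canal muscle and of several embryonic epithelia.

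The 2 promoters are shown because both genes were higher with CHIR in most cell classes. They come from RefSeq, are written 5′ to 3′ from 250 bases before the start site up to it, and lie on the plus strand of GRCh38.p14 at chr4:4859415-4859664 for MSX1 and chr5:174724332-174724581 for MSX2. Capitals mark CCAAT boxes (CCAAT or its reverse complement ATTGG) and the homeodomain core TAATTA.
MSX1: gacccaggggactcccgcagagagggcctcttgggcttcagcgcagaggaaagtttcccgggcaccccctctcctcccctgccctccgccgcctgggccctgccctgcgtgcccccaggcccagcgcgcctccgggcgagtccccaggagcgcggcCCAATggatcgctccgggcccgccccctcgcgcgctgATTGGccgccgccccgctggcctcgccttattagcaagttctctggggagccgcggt
MSX2: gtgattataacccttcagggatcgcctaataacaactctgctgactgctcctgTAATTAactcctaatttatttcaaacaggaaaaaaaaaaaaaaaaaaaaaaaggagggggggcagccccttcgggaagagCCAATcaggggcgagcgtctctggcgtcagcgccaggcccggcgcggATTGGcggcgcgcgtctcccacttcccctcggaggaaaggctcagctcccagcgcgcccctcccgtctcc

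Each promoter held 2 CCAAT boxes, 1 on each strand. Counted from the start site they began at −94 and −57 in MSX1 and at −117 and −70 in MSX2. The search ran on both strands of the window that also takes in 50 bases after the start, and 34.6% of the 35116 promoters of that length held at least 1 such box. TAATTA or TAATTG, letters that many homeodomains bind, occurred 1 time in MSX2, at −197, and 0 times in MSX1 (11.4% of all promoters). The GC box GGGCGG occurred 2 times in MSX1 and 0 times in MSX2 (45% of all), and no matches overlapped one another. Neither window held a TCF/LEF site (CTTTGAA or CTTTGAT or CTTTGTA or CTTTGTT, 13.8% of all) or the SMAD-bound element GGCGCC (19.2% of all). A match is only a run of letters, and no match says nothing of sites elsewhere. The MSX1 window was 74.7% G and C, and the MSX2 window 57%, against a median of 58.7% over all promoters.

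Day 11 gave 5683 cells and 75906387 UMIs, DMSO 4015 cells and 65675862 UMIs, and CHIR 5607 cells and 81076689 UMIs. A UMI, or unique molecular identifier, is 1 counted RNA molecule, and CPM is the UMIs of a gene per 1000000 UMIs of the same cells. Libraries shared 3 to 6 cell barcodes pairwise. Long genes were much higher, relative to short ones, at day 11 than in the DMSO library, and this touches every comparison with day 11 below.

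Cells were classed by summed markers per 10000 UMIs, with no MSX1 or MSX2 count in any gate. At least 100 of the heart muscle markers (TNNT2, TTN, MYH6 and others) with under 12 of the mesenchymal markers (COL1A1, COL3A1, LUM, POSTN and others) made a muscle cell. Cells past both values were held apart, as were low-muscle cells between 32 and 100. Cells under 32 for muscle were collagen-rich from 12 mesenchymal UMIs up, endothelial from 12 endothelial UMIs up, and epithelial from 2 UMIs of EPCAM and CDH1 up, the genes of 2 epithelial adhesion molecules. Cells with at least 16 UMIs of serum protein genes such as TTR and AFP were kept out of the epithelial class. The epithelial gate was added after MSX2 had been read cell by cell, and the serum-protein class is split off only where that gate is used. Levels, folds, ranks and shares of MSX2 that rest on these classes are therefore descriptions. The classes are ranges of a score and not cell types, and between 185 and 296 cells per library lay within 25% of the muscle gate and between 298 and 579 within 25% of the collagen gate. Between 1 and 3 UMIs per 10000 of EPCAM and CDH1 were found in 50 day 11 cells, 39 DMSO cells and 43 CHIR cells.

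The gates fix the levels of their own markers, which are given as a description. Muscle cells were 58.5%, 45.8% and 23.7% of the day 11, DMSO and CHIR libraries, with a median of 283, 287 and 250 heart muscle UMIs per 10000 and of 3.66, 1.90 and 2.89 mesenchymal ones. Collagen-rich cells had medians of 16, 13.1 and 7.24 muscle UMIs. Summed mesenchymal markers were at 4887, 3890 and 4218 CPM in collagen-rich cells of day 11, DMSO and CHIR and at 427, 276 and 346 CPM in muscle cells. None of these 10 markers was at 0 in muscle cells. In epithelial cells EPCAM stood at 567, 483 and 384 CPM against 6.03, 3.98 and 1.61 CPM in collagen-rich cells. Epithelial cells also carried mesenchymal markers, at 1644, 2187 and 1858 CPM, and 92 of 179, 73 of 88 and 34 of 57 of them were past the collagen gate too.

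Over all cells both genes stood at like levels at day 11 and with DMSO and were higher with CHIR. MSX1 had 36.8 CPM at day 11 (interval 35.4 to 38.2), 35.2 with DMSO (33.8 to 36.7) and 242 with CHIR (238.2 to 244.9). MSX2 had 49.0 (47.5 to 50.6), 49.4 (47.7 to 51.1) and 144 CPM (142 to 147). With every cell thinned to 5000 UMIs, MSX1 was detected in 9.39%, 9.60% and 56.5% of cells in that order, and MSX2 in 15.3%, 15.6% and 46.9%. Unthinned, MSX1 was detected in 19.3%, 22.1% and 74.9% of cells and MSX2 in 29.7%, 33.6% and 75.2%. The CHIR library lay above both others in each measure. The CHIR over DMSO ratio was 6.86 for MSX1 (6.57 to 7.17) and 2.92 for MSX2 (2.81 to 3.03), in a comparison where 25.6% of 18785 genes passed 1.5-fold upward and 26.2% downward. The DMSO over day 11 ratio was 0.957 for MSX1 (0.905 to 1.01) and 1.01 for MSX2 (0.960 to 1.06), where 8.32% of genes passed that fold upward and 54.7% downward. The ratios over all cells join a difference in cell make-up with levels inside classes, since collagen-rich cells were 14.2% of the day 11 library, 33.1% of the DMSO library and 63.7% of the CHIR library.

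**Figure D1:**
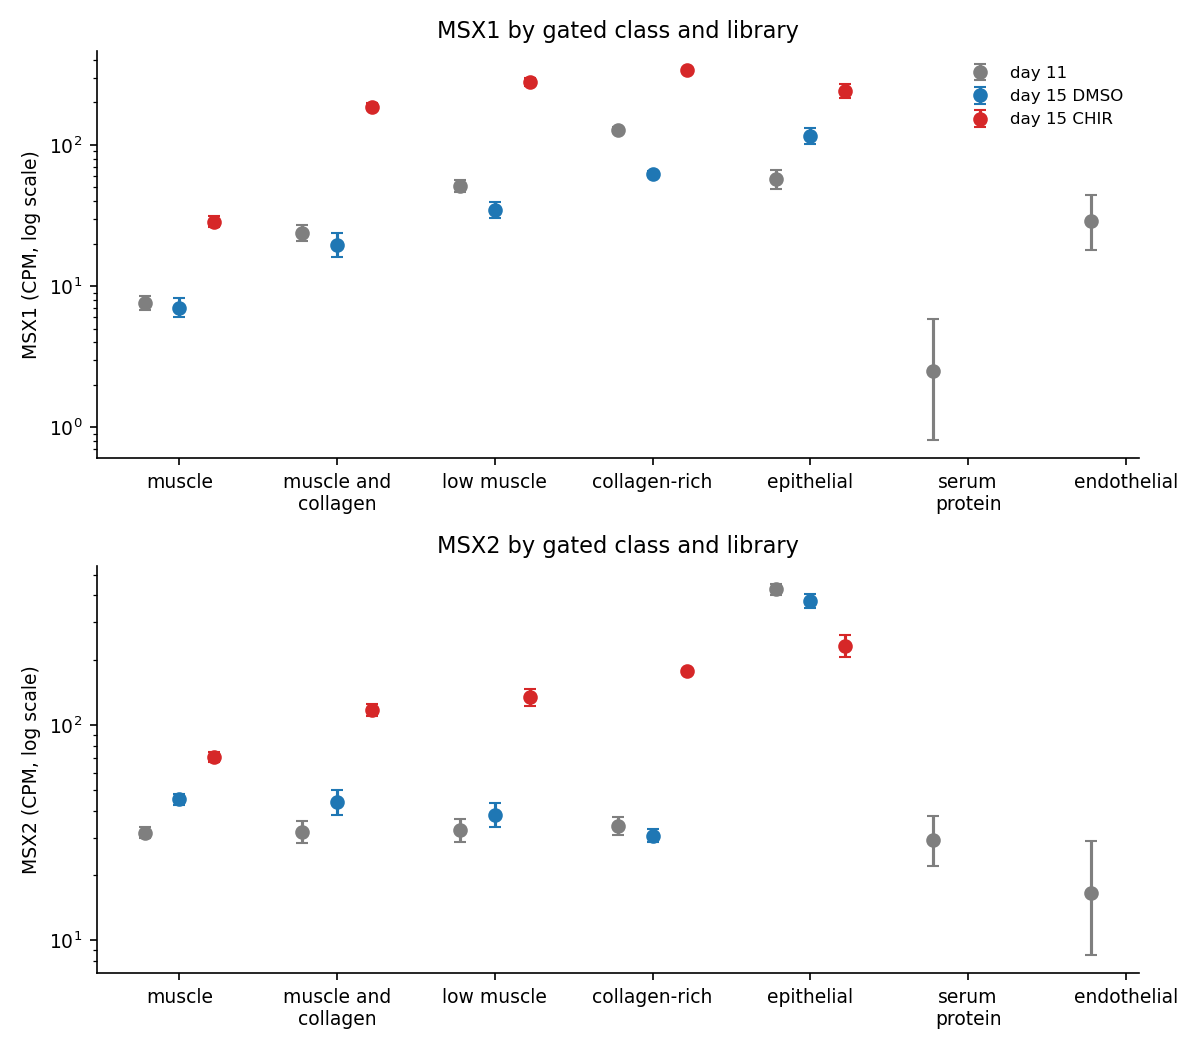
MSX1 (top) and MSX2 (bottom) in CPM on a log scale, by gated class with at least 50 cells and by library (day 11 grey, DMSO blue, CHIR red). Points are pooled levels of 1 library and bars exact Poisson 95% intervals. MSX1 was lower in muscle cells than in collagen-rich cells of every library, and MSX2 stood highest in epithelial cells.

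MSX1 was far higher in collagen-rich cells than in muscle cells of each of the 3 libraries. In collagen-rich cells it stood at 127 CPM at day 11 (121 to 133), 62.1 with DMSO (59.1 to 65.3) and 338 with CHIR (333 to 343). In muscle cells it stood at 7.59 CPM (6.75 to 8.51), 7.05 (6.04 to 8.19) and 28.7 (26.4 to 31.1). Collagen-rich cells lay above muscle cells of the same library by 16.7-fold (14.7 to 19.0), 8.81-fold (7.53 to 10.4) and 11.8-fold (10.8 to 12.8). Between these classes 19.6%, 21.3% and 25.2% of genes were at least 1.5-fold higher in collagen-rich cells, and 39.7%, 36.2% and 25.4% at least 1.5-fold higher in muscle cells. Collagen-rich cells held 59.5%, 67.5% and 81.6% of all MSX1 UMIs.

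The order of MSX1 was read over classes of at least 50 cells. At day 11 collagen-rich cells came first, followed by epithelial cells at 57.0 CPM and low-muscle cells at 51.5 CPM, whose intervals overlapped. Endothelial cells at 29.0 CPM and cells past both gates at 23.9 CPM came next and overlapped each other and the 19.0 CPM of cells with muscle and epithelial markers, and muscle and serum-protein cells were last. With DMSO epithelial cells led with 116 CPM (102 to 132), before collagen-rich cells, low-muscle cells at 34.8, cells past both gates at 19.7 and muscle cells. The 80 DMSO cells that met no gate had 10.9 CPM (6.1 to 18.0), overlapping the last pair. With CHIR the low-muscle cells at 280 CPM, the ungated cells at 249.4 and the epithelial cells at 242 overlapped behind the collagen-rich cells, and cells past both gates followed at 186 CPM.

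Background RNA was not measured, so the lowest class serves only as a low reference. In 119 serum-protein cells at day 11, with a median of 16400 UMIs, MSX1 had 5 UMIs or 2.51 CPM (0.817 to 5.87) and was seen in 1 thinned cell, or 0.840% (0.0213 to 4.59). Muscle cells, with a median of 11529 UMIs, were at 7.59 CPM, above that interval of the level, while their share of 3.46% of thinned cells (8.15% unthinned, against 4.20%) lay within the interval of the share. With CHIR no class of at least 50 cells lay below muscle cells, where 12% of thinned cells had an MSX1 UMI (29.5% unthinned), so no lower level was at hand to set that share against.

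MSX2 followed another pattern, with its peak in epithelial cells. It stood there at 426 CPM at day 11 (403 to 451), 376 with DMSO (349 to 404) and 233 with CHIR (206 to 262). In collagen-rich cells it stood at 33.9 CPM (30.9 to 37.3), 30.6 (28.5 to 32.8) and 178 (174 to 182). In muscle cells it stood at 31.6 CPM (29.8 to 33.4), 45.2 (42.6 to 48.0) and 71.1 (67.4 to 74.9). The epithelial level was 12.6-fold (11.3 to 14.0) and 12.3-fold (11.1 to 13.6) above the collagen-rich one at day 11 and with DMSO, and 1.31-fold (1.16 to 1.48) with CHIR. Of all genes, 17.5%, 12.6% and 18.9% were at least 1.5-fold higher in epithelial than in collagen-rich cells of the 3 libraries, and 19.9%, 29.8% and 26.7% at least 1.5-fold lower. MSX2 ranked 217 of 15180 genes at day 11, 122 of 14318 with DMSO and 4657 of 15475 with CHIR. The epithelial gate followed a reading of MSX2, so these folds and ranks are descriptions. Serum-protein cells, kept out of that class, had EPCAM at 582 CPM at day 11 (567 in epithelial cells) and CDH1 at 105 CPM (158). Their MSX2 level was 29.2 CPM, so the peak belongs to the gated class and not to all cells with EPCAM or CDH1.

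Few cells held much of the MSX2 RNA at day 11 and with DMSO, and not with CHIR. Epithelial cells were 179 cells (3.15%) at day 11 and held 32.1% of all MSX2 UMIs. They were 88 cells (2.19%) with DMSO and held 22.6%, and 57 cells (1.02%) with CHIR and held 2.35%. An MSX2 UMI was found in 166 of the 179 cells at day 11, in 80 of 88 with DMSO and in 46 of 57 with CHIR. After thinning the shares were 75% (67.9 to 81.2), 64.8% (53.9 to 74.7) and 54.4% (40.7 to 67.6). In collagen-rich cells they were 12.7%, 10.8% and 54.6%, so with CHIR detection was alike in both classes. Where epithelial cells were not gated apart, collagen-rich cells had 72.7 and 49.6 CPM of MSX2 at day 11 and with DMSO in place of 33.9 and 30.6. At least 5 UMIs of MSX2 were found in 101, 51 and 24 of the epithelial cells, and in 18, 16 and 33 of 3324, 1840 and 1327 muscle cells.

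**Figure D2:**
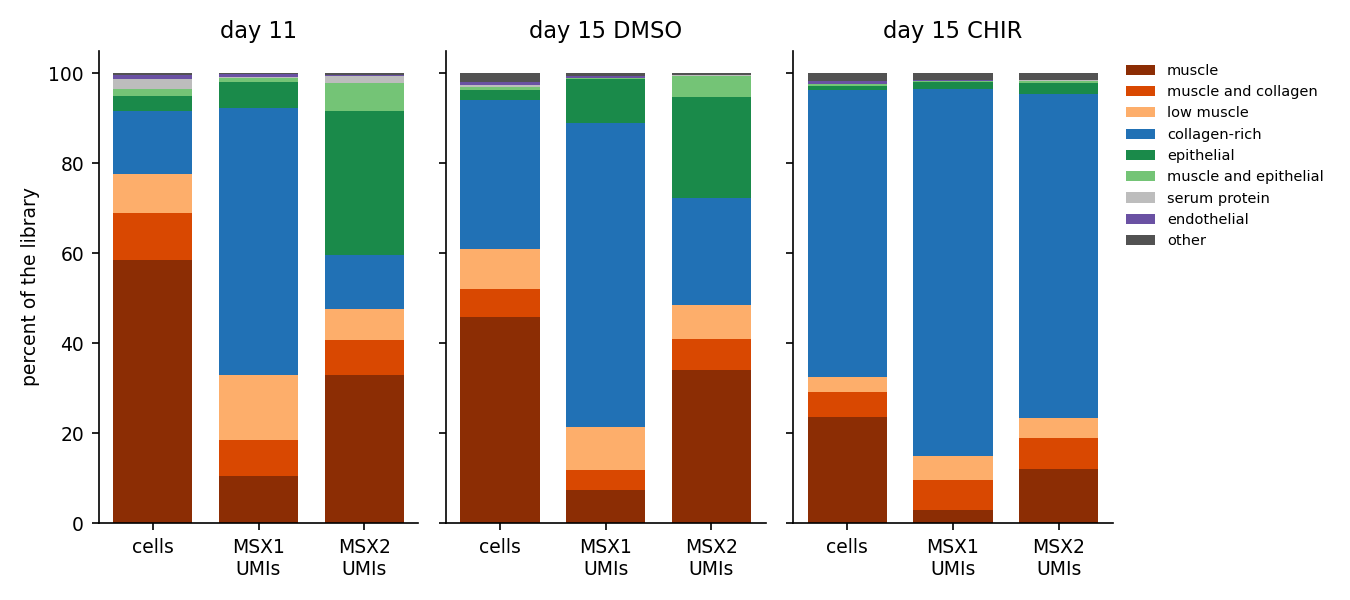
Percent of cells, of MSX1 UMIs and of MSX2 UMIs that fell in each gated class, in 1 library per panel. Epithelial cells (dark green) were 3.15% of cells at day 11 and held 32.1% of its MSX2 UMIs, and collagen-rich cells (blue) held 81.6% of MSX1 and 72.0% of MSX2 UMIs with CHIR.

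Outside the epithelial class and 99 cells with both muscle and epithelial markers (188 CPM), MSX2 hardly differed between classes at day 11. Collagen-rich, low-muscle (32.4 CPM), double-gated (31.8 CPM) and muscle cells had overlapping intervals, and 29.2 CPM (22.2 to 37.7) in serum-protein cells overlapped them as well, so MSX2 in these classes was not above the serum-protein level. The 55 endothelial cells had the lowest level, at 16.6 CPM (8.57 to 29.0), below the intervals of muscle and collagen-rich cells. Their interval overlapped those of serum-protein, low-muscle and double-gated cells, and 7 of their 12 UMIs lay in 1 cell. The thinned shares were 13% in muscle and 11.8% in serum-protein cells (25.5% and 23.5% unthinned). With DMSO muscle cells lay 1.48-fold (1.35 to 1.62) above collagen-rich cells, and 36.2% of genes were at least 1.5-fold higher in muscle cells there. That order rests on the epithelial gate: without it MSX2 was at 49.6 CPM in collagen-rich and 45.6 CPM in muscle cells. The 80 DMSO cells that met no gate had 7.99 CPM (3.99 to 14.3), below all of these. With CHIR collagen-rich cells came behind epithelial cells. Ungated cells at 139 CPM, low-muscle cells at 135 CPM and double-gated cells at 117 CPM followed with intervals that overlapped one another, and muscle cells were last, so collagen-rich cells were now 2.50-fold (2.36 to 2.65) above muscle cells.

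Epithelial cells also differed from the collagen-rich class in other genes, some of which were chosen after their values were seen. The claudin gene CLDN4 stood at 168, 316 and 243 CPM at day 11, with DMSO and with CHIR, against at most 1.98 CPM in collagen-rich cells. The secreted epithelial protein gene WFDC2 stood at 1037, 647 and 177 CPM and the transcription factor gene GATA3 at 137, 119 and 71.5 CPM. ID1, a helix-loop-helix inhibitor and direct BMP target, stood at 930, 943 and 729 CPM against 297, 230 and 374 CPM in collagen-rich cells. The T-box repressor gene TBX3 stood at 221, 100 and 81.7 CPM against 9.31, 8.53 and 134.7 CPM in collagen-rich cells, so with CHIR it was lower in epithelial cells. ISL1, a factor of second heart field progenitors, stood at 216, 160 and 68.1 CPM against at most 14.0 CPM. The cardiac homeobox gene NKX2-5 was at 234, 119 and 8.51 CPM against 16.6, 14.6 and 10.1 CPM. Fewer NKX2-5 cells and less RNA per cell cannot be told apart in such sums.

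Within the epithelial class MSX2 and MSX1 went with different genes. At day 11, in thinned cells, MSX2 was at 543 CPM in the 115 cells with an ISL1 UMI and at 295 CPM in the 61 cells without, a ratio of 1.84 (1.45 to 2.35). The ratios for NKX2-5 and TBX3 were 1.65 (1.34 to 2.04) and 1.63 (1.31 to 2.05). HAND1, a factor of extraembryonic and left ventricular mesoderm, went the other way, with 312 against 492 CPM of MSX2, a ratio of 0.634 (0.466 to 0.849). MSX1 was 14.8-fold higher (7.44 to 32.1) in the 34 cells with a HAND1 UMI and 0.282 times as high (0.134 to 0.551) in cells with an NKX2-5 UMI. In the 5 day 11 splits with at least 50 cells on the marked side, the highest MSX1 ratio was 8.34, for LUM. The other 4 were at least 1.5-fold lower. LUM is one of the mesenchymal markers, and HAND1 was not among these splits. With DMSO the same ratios were 2.06 (1.51 to 2.81) for MSX2 with NKX2-5, 0.619 (0.441 to 0.859) for MSX2 with HAND1, 4.61 (2.04 to 11.7) for MSX1 with HAND1 and 0.282 (0.0726 to 0.796) for MSX1 with NKX2-5. The direction of each was the same in both libraries. For MSX1 with ISL1 it was not, with ratios of 0.452 (0.247 to 0.818) at day 11 and 2.63 (1.27 to 5.78) with DMSO.

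Within collagen-rich cells MSX1 was uneven at day 11 and with DMSO and nearly even with CHIR. These cells were split, after thinning, by whether they held a UMI of a gene. With DMSO, MSX1 was at 82.1 CPM in cells with LUM, the gene of the matrix proteoglycan lumican, and at 12.1 CPM in cells without, a ratio of 6.77 (4.63 to 10.3). At day 11 the LUM ratio was 4.56 (3.43 to 6.18) and with CHIR 1.09 (1.04 to 1.15). MSX1 was lower in cells with TCF21, a factor of epicardial and fibroblast progenitors, by ratios of 0.520 (0.398 to 0.672) at day 11 and 0.340 (0.252 to 0.451) with DMSO, against 0.954 (0.899 to 1.01) with CHIR. The ratios for TWIST1, a mesenchymal helix-loop-helix factor, were 0.409, 0.341 and 1.13 in the same order. For SOX9, a factor of cushion and cartilage cells, they were 0.183, 0.307 and 1.14. LUM and TCF21 are among the markers that set the gate.

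Counted over all splits with at least 50 cells on the marked side, MSX1 was at least 1.5-fold higher in 3 and lower in 6 of 13 at day 11, and higher in 4 and lower in 6 of 15 with DMSO. It passed that fold in 0 of 16 with CHIR, where the ratios ran from 0.832 for WT1 to 1.43 for ID3. MSX2 was higher in 2 and lower in 3 at day 11, higher in 4 and lower in 4 with DMSO, and passed the fold in 0 of 16 with CHIR. In thinned collagen-rich cells 69.0% at day 11, 82.1% with DMSO and 27.0% with CHIR had 0 MSX1 UMIs, where a Poisson spread around the mean would leave 53.8%, 76.3% and 18.2%. The variance over the mean was 2.56, 1.88 and 1.66, so MSX1 varied between CHIR cells by more than counting too. The splits rest on 1 UMI of the splitting gene, and cells without one are not cells without the gene.

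**Figure D3:**
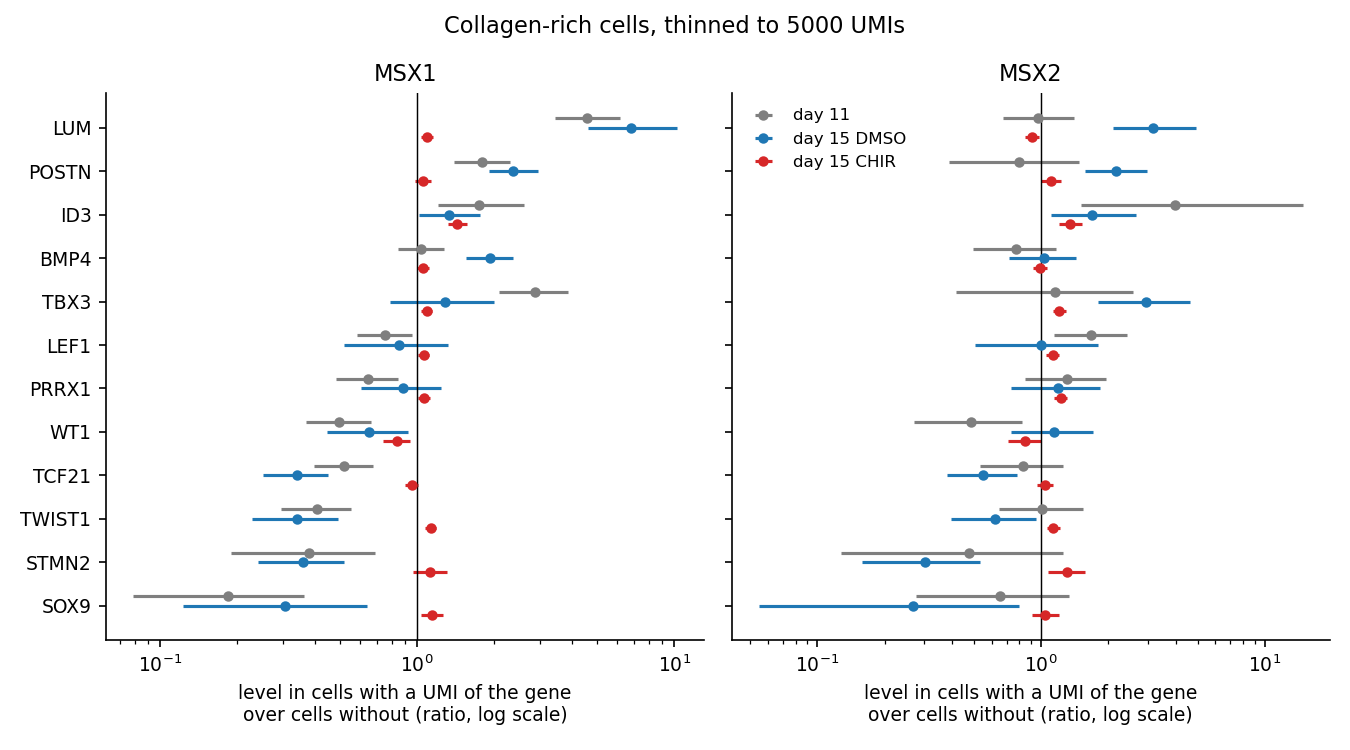
Ratio of MSX1 (left) and MSX2 (right) between collagen-rich cells with a UMI of the gene on the axis and those without, on a log scale, in cells thinned to 5000 UMIs. Bars are exact conditional 95% intervals, and the line marks a ratio of 1. CHIR ratios (red) lay between 0.832 and 1.43 for MSX1, while day 11 (grey) and DMSO (blue) ratios spread from 0.183 to 6.77.

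Collagen-rich cells with and without MSX1 also differed in some other genes at day 11 and with DMSO. Only genes of the lists given further below were read in this split, and only some of them are named. No share over all genes was taken, so how usual such ratios are in this split was not tested. These values come from a separate random thinning to 5000 UMIs, so the cell numbers differ from those above. In 263 DMSO cells with an MSX1 UMI there, HAND1 was at 624 CPM against 199 CPM in the 1065 cells without, a ratio of 3.14 (2.86 to 3.44). ID1 had a ratio of 1.88 (1.67 to 2.10). FST, the gene of the activin and BMP antagonist follistatin, had 1.91 (1.57 to 2.32) and the ligand gene BMP4 1.63 (1.32 to 2). GATA4, a cardiac zinc finger factor, had 0.356 (0.227 to 0.537) and the Notch target HEY1 0.337 (0.246 to 0.451). At day 11 the MSX1 ratios of HAND1, ID1 and FST were 3.06, 1.42 and 2.02. With CHIR that of HAND1 was 1.29 (1.22 to 1.36).

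The question of the CHIR comparison, from the series title, is what canonical Wnt signalling does in canal muscle. In muscle cells MSX1 was at 28.7 against 7.05 CPM, a CHIR over DMSO ratio of 4.07 (3.42 to 4.85). MSX2 was at 71.1 against 45.2 CPM, a ratio of 1.57 (1.45 to 1.70). Here 20.6% of 15742 genes passed 1.5-fold upward and 26.4% downward, and MSX1 ranked 249 from the top and MSX2 2821. MSX2 thus passed the fold by little, and in cells of fewer collagen markers it did not: it was 1.30 (1.15 to 1.47) in muscle cells with under 2 collagen-marker UMIs per 10000. Split by NPPA, an atrial chamber gene, thinned muscle cells had MSX2 ratios of 0.825 (0.589 to 1.14) with an NPPA UMI, at 61.9 against 75 CPM, and 2.04 (1.72 to 2.42) without, at 70.2 against 34.4 CPM. MSX1 ratios were 3.62 (1.83 to 7.17) and 3.95 (2.79 to 5.70) in the same cells.

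Collagen markers moved with MSX1 across cells past the muscle gate. In CHIR cells with under 2 collagen-marker UMIs per 10000, MSX1 was at 18.4 CPM (15.3 to 22), and it was at 76.6 CPM (63.5 to 91.6) at 8 to 12 and 208 CPM (192 to 225) from 24 up. With DMSO the same bins had 6.21 (4.90 to 7.76), 8.79 (4.92 to 14.5) and 25.7 CPM (19.3 to 33.4). The CHIR over DMSO ratio of MSX1 was 2.97 (2.21 to 4.00) in the lowest bin, 2.36 (1.71 to 3.29) in the next and between 6.09 and 11.0 in the 4 above. MSX2 had ratios of 1.30 in the lowest bin and 3.06 (2.21 to 4.28) at 8 to 12. Both genes were thus higher with CHIR also where collagen markers were fewest.

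The MSX1 level of CHIR muscle cells was 8.48% of that in CHIR collagen-rich cells. Over the 10 mesenchymal markers the same share ran from 3.45% for LUM to 24.1% for PDGFRA. It was 3.79% for POSTN, 8.85% for COL3A1 and 14.8% for FBLN1 among them. With DMSO it was 11.3% for MSX1 and ran from 0.870% for DCN to 111.6% for PDGFRA. LUM, POSTN, COL3A1 and FBLN1 had 0.996%, 5.90%, 4.47% and 22.4% there. The MSX2 share was 40.0% with CHIR and 148% with DMSO, above all 10 markers of the same library. The part of RNA from other cells in the MSX1 level of muscle cells was not tested.

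**Figure D4:**
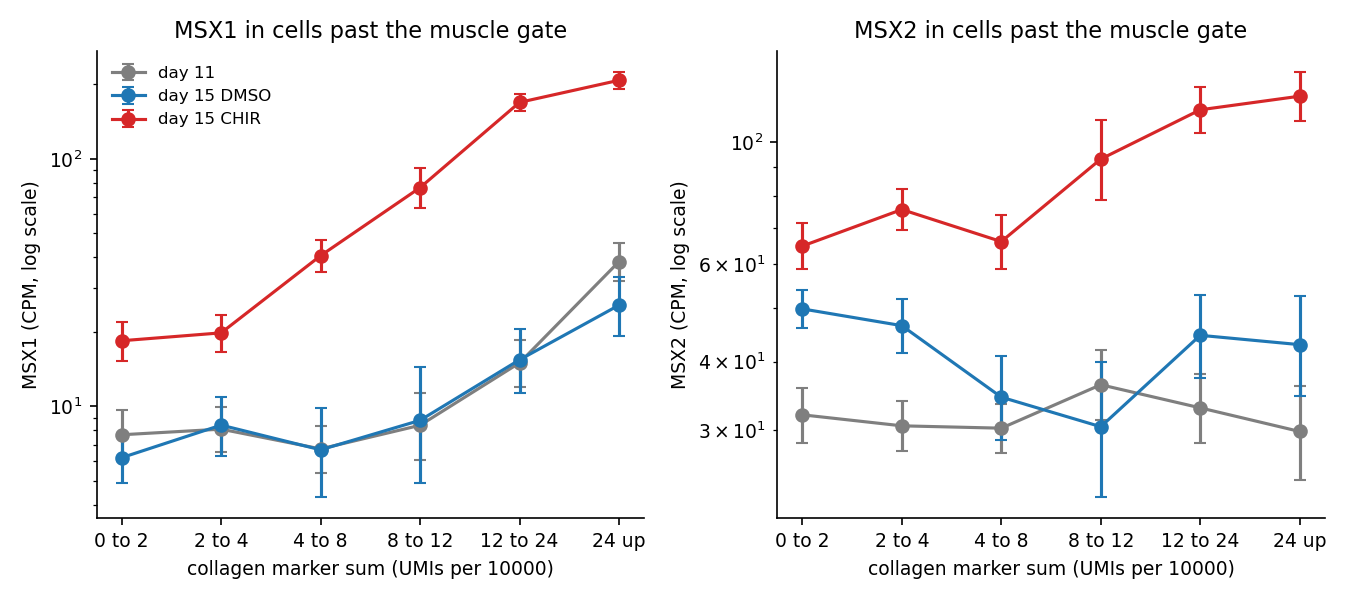
MSX1 (left) and MSX2 (right) in CPM on a log scale in cells past the muscle gate, binned by the sum of mesenchymal markers per 10000 UMIs, for day 11 (grey), DMSO (blue) and CHIR (red), with exact Poisson 95% intervals. MSX1 with CHIR was at 18.4 CPM in the lowest bin and 208 CPM in the highest, above DMSO in each bin.

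In collagen-rich cells both genes were higher with CHIR by like ratios, 5.44 for MSX1 (338 against 62.1 CPM, 5.17 to 5.74) and 5.82 for MSX2 (178 against 30.6 CPM, 5.40 to 6.27). Of 16454 genes 34% were at least 1.5-fold higher and 23.6% lower, and MSX2 ranked 395 and MSX1 433 from the top. Without the epithelial gate the MSX2 ratio was 3.62 and that of MSX1 5.08. The class was of another make-up in each library. POSTN, the gene of the cushion matrix protein periostin, had a UMI in 86.1% of thinned CHIR cells and 17.8% of DMSO cells. Smooth muscle markers summed to 463 CPM with CHIR and 2364 with DMSO, and the keratin gene KRT18 was at 577 against 4520.3 CPM.

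Both genes were higher with CHIR on each side of splits by POSTN and LUM, by ratios that differed widely. In collagen-rich cells with a POSTN UMI MSX1 was 3.19-fold higher with CHIR (2.68 to 3.83), at 346 against 108 CPM, and in those without it 7.18-fold (6.23 to 8.31). MSX2 was 3.67-fold (2.84 to 4.83) and 7.20-fold (5.88 to 8.86) higher. With LUM the ratios were 4.34 for MSX1 and 4.71 for MSX2. Without LUM they were 26.8 (18.6 to 40.2) and 16.4 (11.3 to 24.7), at 326 against 12.1 CPM and 192 against 11.7 CPM. The part of the class make-up in the ratios of the whole class was not tested.

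Epithelial cells were the class where the genes parted. MSX1 was 2.08-fold higher with CHIR (242 against 116 CPM, 1.74 to 2.48), and MSX2 was 1.61-fold lower (233 against 376 CPM, 1.40 to 1.86). Of 8900 genes 34.7% passed 1.5-fold upward and 16.6% downward. The comparison rests on 57 CHIR and 88 DMSO cells. NKX2-5 and ISL1 were also lower with CHIR in this class, and a link of either to the MSX2 level was not tested. In double-gated and low-muscle cells MSX1 was 9.46-fold (7.72 to 11.7) and 8.05-fold (6.96 to 9.34) higher and MSX2 2.67-fold (2.31 to 3.11) and 3.52-fold (3.02 to 4.11), against 27% and 29.6% of genes at least 1.5-fold higher and 22.5% lower in each.

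Detection of both genes in 1 cell was much more common with CHIR. In thinned cells both were found in 1.77% at day 11 (1.44 to 2.16), 2.15% with DMSO (1.72 to 2.66) and 30.3% with CHIR (29.1 to 31.5). In collagen-rich cells the shares were 5.35%, 3.16% and 40.8%. In that class the share was 1.36, 1.64 and 1.03 times what the 2 single shares give if they are independent. In DMSO collagen-rich cells an MSX2 UMI was found in 17.6% of cells with MSX1 and 9.27% of cells without it. With CHIR these shares were 56.0% and 50.9%, so at this depth the 2 genes were found together about as often as their own shares give. High single shares leave the ratio little room above 1, and MSX1 was found in 73.0% of these CHIR cells. The ratios are thus not a like comparison of libraries. Unthinned, the shares with and without MSX1 were 82.0% and 70.2% with CHIR, 46.2% and 17.9% with DMSO, and 39.5% and 23.4% at day 11. In epithelial cells the ratio to what the single shares give was 0.889 at day 11, 1.00 with DMSO and 1.12 with CHIR.

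Most Wnt feedback genes were higher with CHIR in muscle and collagen-rich cells, and BMP genes were not of 1 direction. The counts below are read against 20.6% of all genes at least 1.5-fold higher and 26.4% lower in muscle cells, and 34% and 23.6% in collagen-rich cells. Of 8 canonical Wnt feedback genes, 7 were at least 1.5-fold higher in muscle cells and 8 in collagen-rich cells, with median log2 ratios of 2.17 and 4.45 against −0.02 and 0.16 over all genes. AXIN2, a scaffold of the complex that destroys beta-catenin, was at 68.8 against 2.99 CPM in muscle cells, a ratio of 23.0 (18.2 to 29.5), and at 56.1 against 1.27 CPM in collagen-rich cells, a ratio of 44.0 (31.1 to 64.5). The Wnt effector LEF1 was 6.14-fold and 10.7-fold higher and the antagonist NKD1 25.2-fold and 217-fold. SP5, a Wnt-induced repressor, had 0 UMIs in DMSO collagen-rich cells and 30.4 CPM with CHIR, at least 255-fold higher against a floor of 3 counts for the DMSO cells. Thinned CHIR cells were split by whether they held a UMI of AXIN2 or of LEF1, and not by NKD1 or SP5. The MSX1 ratio between cells with and without an AXIN2 UMI was 0.995 (0.700 to 1.39) in muscle and 1.01 (0.951 to 1.07) in collagen-rich cells. MSX2 was at 64.3 CPM in muscle cells with AXIN2 and 71.1 CPM in those without. With and without LEF1, MSX1 was at 25.8 and 27.0 CPM in muscle cells and 355 and 334 CPM in collagen-rich cells. MSX2 was at 79.6 and 64.2 CPM in muscle cells and 193 and 171 CPM in collagen-rich cells in the LEF1 split. Cells without a UMI of AXIN2 or LEF1 are not cells without that gene's RNA. A link of MSX1 or MSX2 to Wnt response was not tested.

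Among BMP ligands, BMP4 was higher in both classes, at 81.6 against 30.8 CPM in muscle cells (2.65, 2.43 to 2.90) and 167 against 79.6 CPM in collagen-rich cells (2.10, 2 to 2.21). BMP5 was 2.07-fold and 1.97-fold higher, and BMP7 had ratios of 0.975 and 1.13. BMP2, the ligand best known from canal muscle, was 2.89-fold (2.65 to 3.15) and 3.53-fold (3.02 to 4.14) lower. Of 6 receptor genes, 1 of 5 measured was higher in muscle cells, BMPR2 at 1.76, and 3 of 6 in collagen-rich cells, BMPR1A, BMPR1B and ACVR2A at 1.89, 4.78 and 1.89. These receptor counts are near the shares over all genes. Of 4 SMAD transducers, SMAD9 was 2.50-fold lower in muscle cells and 2.27-fold higher in collagen-rich cells, SMAD4 was 1.92-fold higher in the latter, and SMAD1 and SMAD5 had ratios between 1.04 and 1.11 in both.

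In muscle cells 6 of 8 measured inhibitors were at least 1.5-fold lower and 0 higher, with SMAD6 2.94-fold, follistatin (FST) 4.15-fold and noggin (NOG) 2.38-fold lower. In collagen-rich cells 4 of 9 were higher, FST by 2.25-fold and the pseudoreceptor gene BAMBI by 1.70-fold among them, and 1 was lower, near the share over all genes. Of the 4 ID genes, which BMP induces directly as it does MSX genes, 0 were higher and 2 lower in muscle cells. ID3 was at 182 against 727 CPM there, 3.99-fold lower (3.85 to 4.14), and ID1 was 1.71-fold lower. In collagen-rich cells ID2 was 4.12-fold and ID1 1.63-fold higher, and ID3 and ID4 had ratios of 0.700 and 0.741. Thus in muscle cells both MSX genes were higher and 2 of the 4 ID genes lower.

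Of the 8 canal factors, TBX2 and TBX3, repressors of chamber genes, were 1.75-fold and 2.35-fold higher in muscle cells and 16.3-fold (12.7 to 21.3) and 15.8-fold (13.8 to 18.2) in collagen-rich cells. HEY2 and HEY1 were the 2 lower in muscle cells, 3.65-fold and 1.57-fold. With 2 of 8 higher and 2 lower in muscle cells, the list was near the shares over all genes there. Of 7 cushion transition factors, 5 were higher in collagen-rich cells, PRRX1 by 6.43-fold, TWIST1 by 2.81-fold and SNAI2 by 2.28-fold among them. In muscle cells 1 was higher, PRRX1 by 4.36-fold, and 2 were lower, also near those shares. Among related homeobox genes 8 of 13 were too low to measure in muscle cells, and PITX1, a limb and jaw homeobox gene, was at 150 against 8.96 CPM in collagen-rich cells, 16.7-fold higher (14.7 to 19.2). Of 5 chamber genes 4 were lower in muscle cells, MYL7 by 11.8-fold and NPPA by 9.05-fold, and GJA5 was 7.38-fold higher.

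**Figure D5:**
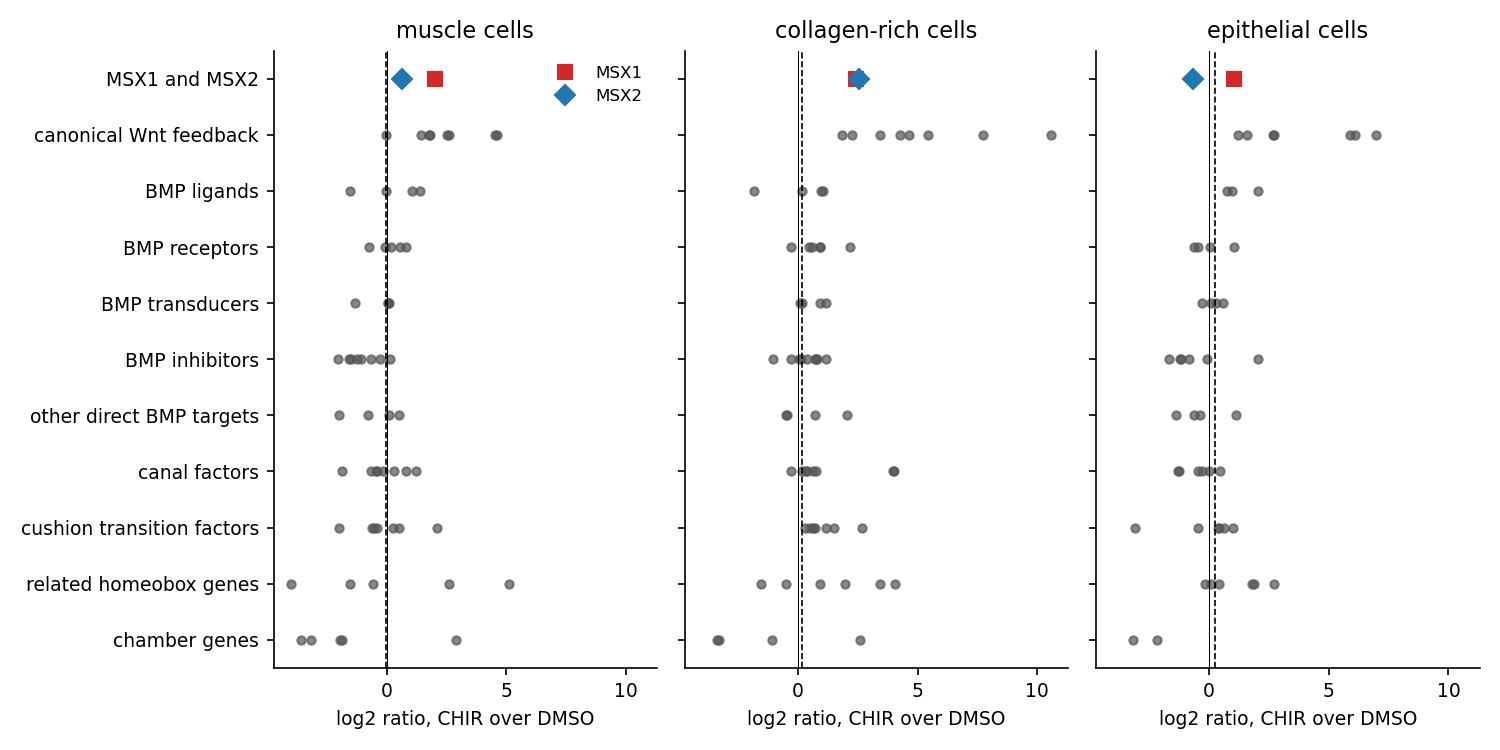
Log2 ratio of CHIR over DMSO for MSX1 (red square), MSX2 (blue diamond) and the measured genes of each list (grey points) in muscle, collagen-rich and epithelial cells, with 0.5 added to each count and the median of all genes dashed. MSX1 lay at 2.02, 2.44 and 1.05 and MSX2 at 0.65, 2.54 and −0.69, and the Wnt feedback genes spread furthest to the right.

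Splits of muscle cells by other genes moved MSX2 most in the DMSO library. There MSX2 passed 1.5-fold upward in 2 and downward in 3 of 12 splits and MSX1 upward in 1 and downward in 4. At day 11 MSX2 passed in 2 of 10 splits, both upward, and with CHIR in 1 each way. The lowest MSX2 ratio was 0.242 (0.0497 to 0.712), in 52 DMSO cells with SHOX2, a sinus node factor. MSX1 ratios with DMSO ran from 0.422 (0.0500 to 1.59) for TBX3 to 1.56 (0.858 to 2.74) for TBX2, on few UMIs. With DMSO, MSX2 was at 75 CPM in thinned cells with NPPA, the atrial natriuretic peptide gene of chamber muscle, and at 34.4 CPM in those without, a ratio of 2.18 (1.79 to 2.66). At day 11 that ratio was 1.17 (0.924 to 1.47) and with CHIR 0.882 (0.640 to 1.19). MSX2 was higher in cells with ID3 at day 11, by 2.31-fold (1.58 to 3.52), and with DMSO, by 1.92-fold (1.31 to 2.93), and the ratio with CHIR was 1.04 (0.863 to 1.26). For TBX2, the canal repressor, MSX2 ratios were 1.05, 1.38 and 1.13 in the day 11, DMSO and CHIR libraries. In the separate thinning used for cells with and without a member, 377 CHIR muscle cells had an MSX2 UMI, and in them BMP4 was at 114 CPM against 71.0 CPM in the 932 without, a ratio of 1.61 (1.35 to 1.91). Other list genes of this split are not given, and no share over all genes was taken.

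Between day 11 and day 15 DMSO the ratios moved with the scaling, and so are given as values. The CHIR comparison uses the same DMSO library. MSX1 in collagen-rich cells was at 127 CPM at day 11 and 62.1 with DMSO, 2.04-fold lower (1.90 to 2.19), where 51.2% of 15901 genes were at least 1.5-fold lower and 8.24% higher. In epithelial cells it was at 57.0 and 116 CPM, a ratio of 2.04 (1.66 to 2.51), where 8.55% of genes were at least 1.5-fold higher and 53.6% lower. In muscle cells the ratio was 0.929 (0.765 to 1.12), where 8.37% of genes were higher and 53.3% lower by that fold. In double-gated and low-muscle cells MSX1 had ratios of 0.826 and 0.676 and MSX2 1.38 and 1.18, against 8.99% and 10.1% of genes at least 1.5-fold higher and 50.9% and 47.5% lower. The MSX2 ratios were 1.43 (1.32 to 1.55) in muscle, 0.901 (0.801 to 1.02) in collagen-rich and 0.882 (0.804 to 0.968) in epithelial cells.

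The median log2 ratio of all genes in that comparison was −0.67 in muscle and −0.63 in collagen-rich cells. In muscle cells it was 0.08 for genes of at most 10 kb and −1.94 for genes over 100 kb, and the log2 ratio went with gene length at a Spearman correlation of −0.62 across genes, which are not independent replicates. MSX1 spans 4272 bases and MSX2 6315, so both are short genes. With totals over genes of at most 10 kb the MSX2 ratio in muscle cells was 0.982, and with median-ratio size factors 2.19, so its direction depends on the scaling. The labels and notes do not state if intron reads were counted, and the part of such counting in these ratios was not tested.

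The genes most like each member were read over 18 class and library sums of at least 50 cells, among 9985 genes that reach 20 CPM in some sum. The measure was the Pearson correlation of log2(CPM + 1), and the sums share libraries and depth. For MSX1 they were PLAU, the gene of urokinase (0.88), EIF3F, a translation initiation subunit (0.87), MME, the gene of the surface peptidase neprilysin (0.87), BMP4 (0.87) and PRRX1 (0.86). For MSX2 they included the LIM-domain factor LMO1 (0.85), the cadherin gene CDH7 (0.83), NKAIN4 (0.82) and the spindle checkpoint gene BUB3 (0.81). The lists had no gene in common. The correlation of MSX1 with MSX2 was 0.54, which placed MSX2 at rank 553 for MSX1 and MSX1 at rank 159 for MSX2.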

How the data were processed

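Single-cell RNA was measured in 3 libraries of 1 sample per group. The authors deposited UMI count tables, raw whole numbers for each gene in each cell. Per the submitters' processing notes, Cell Ranger 6.1.1 and GRCh38 were used, and R 4.1.0 and Seurat 4.3.0 are also named for day 11. Deposited cells held 1802 to 5999 genes. The H3K27ac and input files (hg19) were not used here. No columns of other samples were present (0).

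UMIs were summed per class and divided by the class total (CPM). Levels have exact Poisson intervals, ratios exact conditional binomial intervals and shares exact binomial intervals, all at 95%. With 1 library per group no test was made. Ratios were read for genes with at least 20 UMIs over both libraries, as shares past 1.5-fold. Shares of cells with a UMI used cells thinned to 5000 UMIs, with separate random draws for shares, splits and cells with a member, and leaving out 158, 68 and 26 shallower cells at day 11, with DMSO and with CHIR. KRT8, KRT18 and KRT19 were left out of the marker sums.

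Doublets were scored with Scrublet in scanpy 1.11.5 at an expected 6% of doublets. It called 1 cell at day 11, 239 with DMSO and 0 with CHIR. These numbers mean that it failed in the day 11 and CHIR libraries, and all cells were kept. Cells with muscle and collagen or epithelial markers were held apart.

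Alternatives were edgeR 4.0.16 TMM factors, median-ratio factors, totals without mitochondrial and ribosomal protein genes, means of per-cell CPM, gates halved and doubled, no doublet-scored cells, other depths and filters. Halving and doubling changed the muscle and mesenchymal gate values only. The epithelial, serum-protein and endothelial gate values stayed fixed, so the epithelial value itself was not varied. Added after seeing the data were no epithelial gate, totals of short genes and a stricter collagen limit. The ratio and interval code was tested on simulated data. The members, gene lists and gates were chosen with earlier results of these data known. List genes are named by list whatever their values; genes most like a member are the 5 of highest correlation, and 1 of those for MSX2 is not reported here. Gene names were matched to RefSeq by symbol, and 83.1% to 88.2% of genes tested had a length.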

Additional observations from a re-analysis of the deposited data

Results flagged for a closer look

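MSX2 stood in opposite directions between CHIR and DMSO in different classes, with ratios of 1.57 in muscle and 5.82 in collagen-rich cells and 0.620 in epithelial cells. With 1 library per group the difference between classes was not tested. The epithelial value rests on 57 CHIR and 88 DMSO cells.

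Between DMSO and day 11, MSX1 had a ratio of 2.04 in epithelial and 0.490 in collagen-rich cells, and MSX2 had 1.43 in muscle and 0.882 in epithelial cells. These differences were not tested either. The MSX2 values cross 1 with the scaling, while the 2 MSX1 values kept their directions under all scalings run.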

How the results depend on the processing

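Of 162 comparisons of a main result with an alternative, 98 stayed within the counting interval, 61 moved beyond it and 3 changed direction. A change of direction, or turn, was counted only where the main interval excluded 1. Ratios of DMSO over day 11 whose main interval held 1 also crossed it under some alternatives. These were MSX1 in muscle cells and MSX2 in collagen-rich cells, and they are counted as within or beyond the interval. No CHIR over DMSO ratio of a class changed direction. Leaving out the highest doublet scores moved 0 of 24 results, which tests little, since it took out at most 3.01% of muscle and 2.32% of collagen-rich cells. In all that follows the cause was not tested. No paired analysis was possible because each single-cell group is 1 library, and replicate numbers are shared only among the H3K27ac and input samples.

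CHIR over DMSO, MSX1: in muscle cells 2.77 with gates halved and 2.97 with a collagen sum under 2; in collagen-rich cells 5.10 with median-ratio factors, 6.14 without mitochondrial and ribosomal protein genes, 6.16 as a per-cell mean, 4.63 and 5.11 with gates halved and doubled and 5.08 without the epithelial gate; in epithelial cells 1.66 with median-ratio factors and 1.59 with gates halved. MSX2: in muscle cells 1.79 without mitochondrial and ribosomal protein genes and 1.30 with a collagen sum under 2; in collagen-rich cells 6.57 without those genes, 6.31 as a per-cell mean, 5.17 with gates doubled and 3.62 without the epithelial gate; in epithelial cells 0.525 with TMM and 0.496 with median-ratio factors.

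DMSO over day 11 moved with the scaling. With TMM, median-ratio factors and totals of genes up to 10 kb, MSX1 was 1.40, 1.42 and 0.637 in muscle and 0.758, 0.803 and 0.414 in collagen-rich cells, and 3.06 and 3.19 with the first pair in epithelial cells. MSX2 was 2.16, 2.19 and, turned, 0.982 in muscle, 1.39, 1.47 and 0.761 in collagen-rich, and 1.33 and 1.38, both turned, and 0.729 in epithelial cells. Without mitochondrial and ribosomal protein genes MSX1 was 0.553 in collagen-rich cells, and MSX2 1.66, 1.02 and 0.970 in muscle, collagen-rich and epithelial cells. Gates halved gave MSX2 0.769 in collagen-rich and 0.971 in epithelial cells; gates doubled gave MSX2 1.57 in muscle and 1.05 in collagen-rich cells and MSX1 0.546 in the latter. Without the epithelial gate collagen-rich cells had 0.552 for MSX1 and 0.682 for MSX2, and a collagen sum under 2 gave MSX2 1.56 in muscle cells.

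Levels in CPM moved with the gates. Halved, MSX1 was 154 and 71.9 in collagen-rich cells of day 11 and DMSO and 21.8 in CHIR muscle cells, and MSX2 28.2 in DMSO collagen-rich cells. Doubled, MSX2 was 29.0 in day 11 muscle cells, and DMSO collagen-rich cells had 66.9 for MSX1 and 34.3 for MSX2. Without the epithelial gate collagen-rich cells had 120.2 and 66.3 CPM of MSX1 and 72.7 and 49.6 of MSX2 at day 11 and with DMSO. The share of cells with both members was 0.739%, 0.922% and 14.1% at 2500 UMIs and 7.16%, 10.9% and 60.0% unthinned. With log2(CPM + 5), 3 of the 5 genes most like MSX1 were shared.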

Other observations

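Cells with both muscle markers and EPCAM or CDH1 (99, 27 and 14 in the day 11, DMSO and CHIR libraries) entered none of the ratios between libraries. MSX2 was at 188 CPM (164 to 214), 297 CPM (252 to 349) and 202 CPM (155 to 260) in them, between the muscle and epithelial levels of the same library at day 11 and with DMSO. MSX1 was at 19.0, 5.91 and 172 CPM. The 3 MSX1 UMIs of the DMSO cells stood beside 151 MSX2 UMIs.

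Endothelial cells, the source of cushion mesenchyme in the embryo, numbered 55, 25 and 34. MSX1 was at 29.0 CPM (18.0 to 44.4), 22.4 CPM (10.7 to 41.1) and 57.1 CPM (37.9 to 82.5) in them, and MSX2 at 16.6, 2.24 and 26.5 CPM from 12, 1 and 13 UMIs.

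Serum-protein cells carried TBX3 at 181 CPM at day 11, near the 221 CPM of epithelial cells, while MSX2 was at 29.2 CPM in the former and 426 CPM in the latter.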
